A study of Mus musculus with 15 samples.

Results

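Levels of 9 genes that restrain cell division or mark senescent cells were examined in the gastrocnemius of aged female mice, over 4 groups defined by frailty and downhill running. The genes were taken as a named list, Cdkn1a, Cdkn1b, Cdkn2a, Cdkn2b, Cdkn2c, Trp53, Mdm2, Ccng1 and Plaur, and were mapped by symbol to the Ensembl identifiers of the counted genes, so they are 9 of 55450. Of these, 8 were among the 16920 genes with enough counts to be tested, and Cdkn2a, with 0 to 9 counts in a mouse, was not. All 15 mice were female C57BL/6JN older than 17 months and were placed in the Low or High frailty marker group (called robust and frail in the sample labels) by physical tests, body weight and a deficit index. Control mice stayed sedentary in their cages, and Run mice completed 2 bouts of treadmill running on a decline of 22 degrees, in 10 stages at 13 m/min, with the muscle collected 24 h afterwards. The Low group had 4 Control and 4 Run mice and the High group 3 Control and 4 Run mice, with 1 library per mouse. Controls did not go through the downhill protocol, in which mice were prodded by hand to keep running, so running and handling cannot be told apart. RNA came from powdered whole muscle, so a lower level cannot be told apart between fewer cells of a type and less RNA per cell.

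Cyclin-dependent kinases drive a cell from rest into division, and their inhibitors hold them in check. The Cip/Kip inhibitors p21 (Cdkn1a) and p27 (Cdkn1b) bind a broad range of cyclin-kinase complexes, and the Ink4 inhibitors p16 (Cdkn2a), p15 (Cdkn2b) and p18 (Cdkn2c) block the kinases that pair with D-type cyclins. The tumor suppressor p53 (Trp53) is a transcription factor activated by damage, Cdkn1a and Ccng1 (cyclin G1) are among its classical targets, and its target Mdm2 encodes the ubiquitin ligase that degrades it. Senescent cells have left the cycle for good, often with high p16 or p21, and Plaur, the urokinase receptor, is a surface protein used to mark them. Muscle fibers are themselves permanently outside the cycle, and in muscle Cdkn1a is also known to respond to denervation, disuse and glucocorticoids.

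The 250 bases before each RefSeq start (12 starts, all 9 genes matched) were searched on both strands for the motif that is repeated in p53 response elements, and 4 windows held it, those of Cdkn1a, Mdm2, Ccng1 and Trp53, against 7.13% of all 32851 promoter windows of that length. The list was chosen in part as p53 target genes, so nothing is read from this share. These 4 are shown because they are the genes of the list that held the motif, which is written in capitals. Coordinates are on GRCm38.p6, with 5′ to 3′ in the direction of transcription. The windows are chr17:29090729-29090978 on the plus strand for the first start of Cdkn1a, chr10:117710759-117711008 on the minus strand for Mdm2, chr11:40755287-40755536 on the minus strand for Ccng1 and chr11:69580109-69580358 on the plus strand for Trp53.
Cdkn1a: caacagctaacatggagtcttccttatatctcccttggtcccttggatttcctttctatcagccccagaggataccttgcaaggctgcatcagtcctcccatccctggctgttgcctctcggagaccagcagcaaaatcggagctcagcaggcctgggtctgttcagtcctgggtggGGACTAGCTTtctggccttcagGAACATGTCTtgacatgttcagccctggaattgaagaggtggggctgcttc
Mdm2: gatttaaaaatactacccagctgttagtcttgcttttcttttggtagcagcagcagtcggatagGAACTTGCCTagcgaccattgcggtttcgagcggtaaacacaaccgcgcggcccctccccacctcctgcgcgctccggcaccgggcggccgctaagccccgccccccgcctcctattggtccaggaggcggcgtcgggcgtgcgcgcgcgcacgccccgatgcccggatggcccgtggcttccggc
Ccng1: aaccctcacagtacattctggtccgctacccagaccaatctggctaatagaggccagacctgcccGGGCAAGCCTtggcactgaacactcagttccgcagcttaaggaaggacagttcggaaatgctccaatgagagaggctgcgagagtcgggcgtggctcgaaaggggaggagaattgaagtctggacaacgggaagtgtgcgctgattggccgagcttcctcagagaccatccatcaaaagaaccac
Trp53: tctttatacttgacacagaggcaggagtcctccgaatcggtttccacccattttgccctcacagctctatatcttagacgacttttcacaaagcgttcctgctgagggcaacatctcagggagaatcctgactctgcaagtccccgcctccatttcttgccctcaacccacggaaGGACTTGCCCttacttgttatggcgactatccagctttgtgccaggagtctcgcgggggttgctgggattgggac
The Cdkn1a window held 2 matches, which begin 73 and 51 bases before the start, and the second start of Cdkn1a held 0. The match began 186 bases before the start of Mdm2, 185 before Ccng1 and 75 before Trp53. The FoxO element GTAAACA was in the Mdm2 window alone (3.17% of all windows), and the full consensus of the glucocorticoid response element was in 0 of the 12 (0.00913% of all windows). A match is only a run of letters, and a window without one says nothing of the factor.

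The libraries held 19395125 to 30699216 counts. Skeletal muscle markers were abundant in every mouse, with a summed level of the 6 fiber genes Acta1, Ckm, Myh4, Myh1, Mylpf and Tnnt3 between 107442 and 172125 counts per 1000000 (CPM, with libraries scaled by the trimmed mean of M-values). Low Control mouse D9 and High Run mouse D62 stood apart from the rest. They were the 2 highest of the 15 mice for 13.4% of the genes tested and the 2 lowest for 11.5%, the largest share among all 105 pairs of mice at either end, where the median pair had 0.621% and 0.662%. Results that rest most on these mice are given with and without them, a choice made after the data were seen.

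The 9 genes differed widely in level. Per kilobase of exon, Ccng1 was highest with a median of 256.9 CPM per kb over the 15 mice (range 151.02 to 339.9), followed by Cdkn1a at 25.0 (12.6 to 106.9), Mdm2 at 15.1 (9.72 to 27.2), Cdkn1b at 8.48 (7.07 to 13.2), Cdkn2c at 7.03 (5.53 to 8.53) and Trp53 at 4.83 (3.66 to 6.20). Plaur at 1.07 (0.507 to 3.03) and Cdkn2b at 1.08 (0.417 to 1.43) were low and Cdkn2a was close to absent, at 0.0630 (0 to 0.258). In this order the ranges of Ccng1 and Cdkn1a did not overlap, nor did those of Trp53 and Plaur or of Cdkn2b and Cdkn2a, while every other pair of neighbors overlapped. Spread between mice also differed by gene. The highest mouse exceeded the lowest 8.49-fold for Cdkn1a, 5.97-fold for Plaur and 3.42-fold for Cdkn2b, and 1.54-fold for Cdkn2c, 1.70-fold for Trp53 and 1.86-fold for Cdkn1b.

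**Figure D1:**
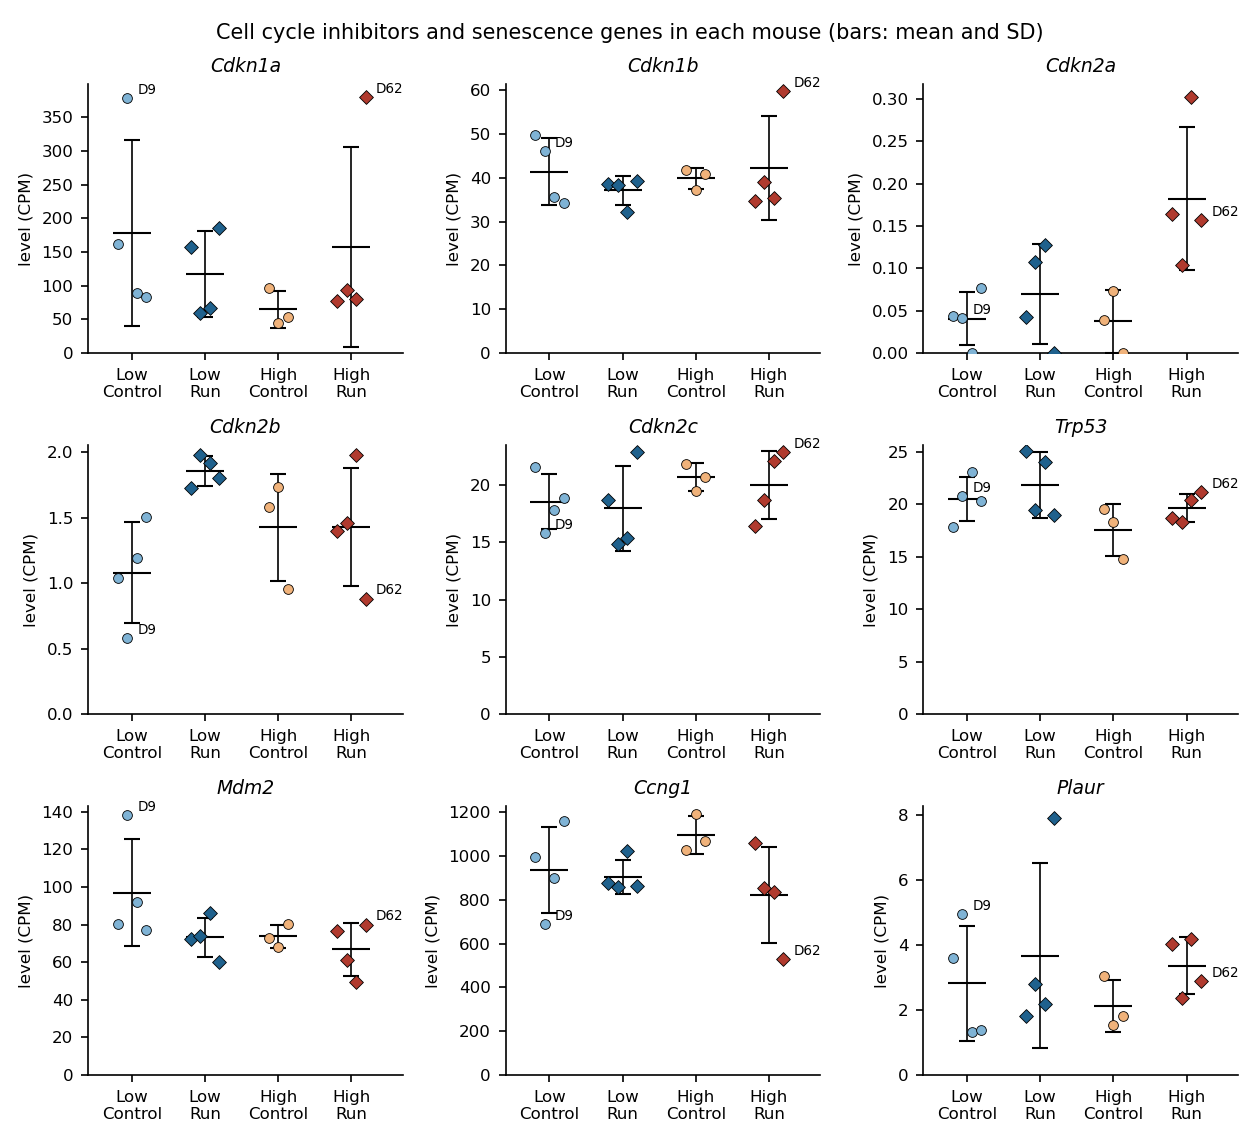
Level of each of the 9 genes in each mouse, in CPM on a linear axis that starts at 0, by group. Points are mice (circles Control, diamonds Run), horizontal bars are group means and whiskers are 1 SD. Mice D9 and D62 are named: they hold the 2 highest levels of Cdkn1a and the 2 lowest of Cdkn2b and Ccng1.

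Whether running or frailty changed these genes was asked in 6 comparisons with edgeR's quasi-likelihood test, with false discovery rates (FDR) over all genes tested and a threshold of 0.1. No gene of the list passed it in any comparison, and neither did any other gene (0% of 16920 in each). DESeq2 called 9 genes in the Low, 15 in the High and 105 in the averaged running comparison, none of them in the list. At an unadjusted p under 0.05, 1 of the 8 passed in Low Run against Low Control (Cdkn2b, higher), where 13.4% of all genes did (5.92% higher, 7.52% lower), and 0 in High Run against High Control, where 5.18% did (3.28% higher, 1.9% lower). Cdkn1a passed as the 1 of 8 in the Frailty × Run interaction (7.93% of all genes, 5.24% higher and 2.69% lower) and, lower, in High Control against Low Control (5.86%, 1.8% higher and 4.06% lower). In High Run against Low Run (2.51%) and in Run against Control averaged over frailty (8.63%, 5.6% higher and 3.04% lower) the count was 0 of 8. A count of 0 or 1 of 8 is close to these shares. The comparisons share groups with one another and are not separate evidence. The median log2 fold change of the 8 genes was -0.05 in Low mice, 0.04 in High mice and 0.16 for the interaction, against 0.02, 0.05 and 0.03 for all genes tested.

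**Figure D2:**
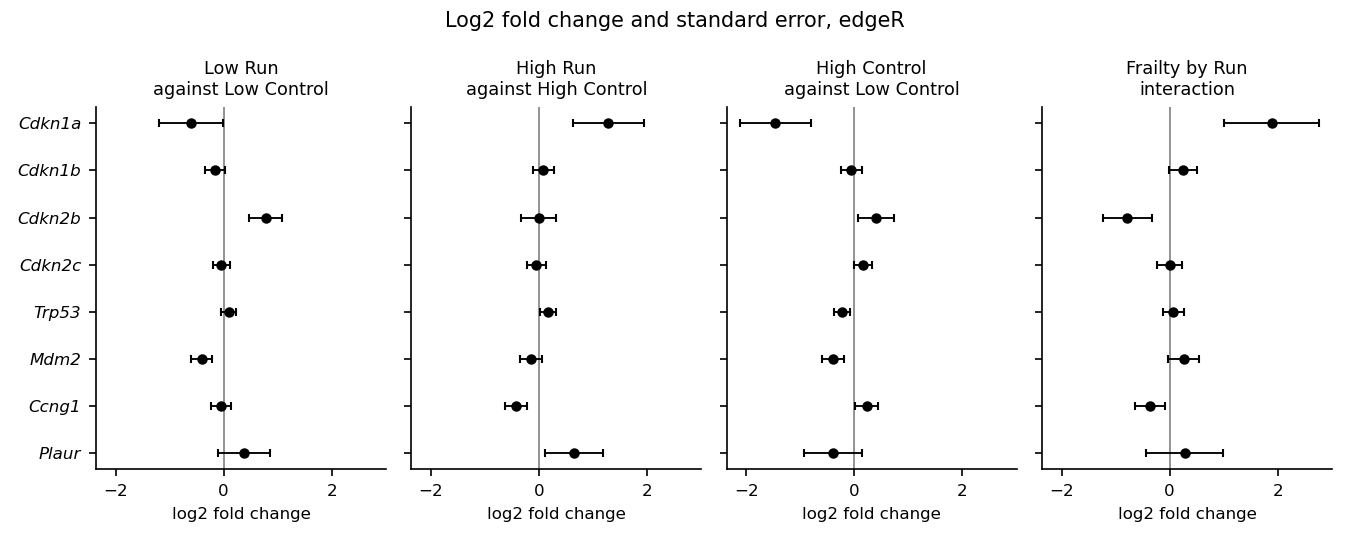
Log2 fold change of the 8 tested genes in 4 comparisons (edgeR), with points for the estimate and bars for 1 standard error. Cdkn1a had the widest bars and lay at 1.89 for the interaction and -1.46 for High Control against Low Control, and Cdkn2b lay at 0.78 in Low Run against Low Control.

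Cdkn1a, which encodes p21, was the most variable gene of the list, with 1 very high mouse in each of 2 groups (ENSMUSG00000023067, chr17:29090976-29100727, plus strand). A gene model on the opposite strand, AC167363.2, overlaps 1046 of its bases, and the counting was by strand. Its level was 162, 378, 89.0 and 82.6 CPM in the Low Control mice D8, D9, D11 and D98. In Low Run mice it was 157, 59.2, 66.96 and 185 CPM. High Control mice had 96.4, 44.7 and 52.9 CPM, and High Run mice 77.3, 93.6, 79.6 and 379.8 CPM, the last in D62. D9 and D62 had 4.58 and 4.60 times the median of the other 13 mice (82.6 CPM), whose highest value was 185, and each of the 4 groups overlapped with the others. Group means were 178 ± 138 (SD, n = 4) in Low Control, 117 ± 63.6 (SD, n = 4) in Low Run, 64.7 ± 27.8 (SD, n = 3) in High Control and 158 ± 148 (SD, n = 4) in High Run.

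For Cdkn1a the log2 fold change was -0.60 (SE 0.59, FDR = 0.622) in Low Run against Low Control and 1.28 (SE 0.65, unadjusted p = 0.0673, FDR = 0.956) in High Run against High Control. The interaction, the High response less the Low response, was 1.89 (SE 0.87, unadjusted p = 0.0468, FDR = 0.5997), and High Control against Low Control gave -1.46 (SE 0.66, unadjusted p = 0.0416, FDR = 0.704). Without D9 the interaction was 1.22 (unadjusted p = 0.145), without D62 it was 0.97 (unadjusted p = 0.187), and without both it was 0.30 (SE 0.56, unadjusted p = 0.604). Without D9 the control comparison was -0.79 (unadjusted p = 0.209) and the Low response was 0.06, and without D62 the High response was 0.36 (unadjusted p = 0.510). With voom, which weights libraries by quality, the interaction was 1.00 (unadjusted p = 0.0879). High Run against Low Run went from 0.43 in all mice to -0.49 without D62. Hemoglobin and heme genes also differed between these groups. All 3 erythroid markers (Hba-a1, Hbb-bs and Alas2) were higher in High Run than in High Control at an unadjusted p under 0.05 (3.28% of all genes). They were also lower in High Control than in Low Control at that threshold (4.06% of all genes). Their summed level ran from 459.6 to 2205 CPM in Low Control, 227 to 760.3 in Low Run, 287 to 457 in High Control and 355 to 3549 in High Run. It was 534 in D9 and 1243 in D62, below the highest mouse of their groups. The part of blood in the Cdkn1a result was not tested.

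**Figure D3:**
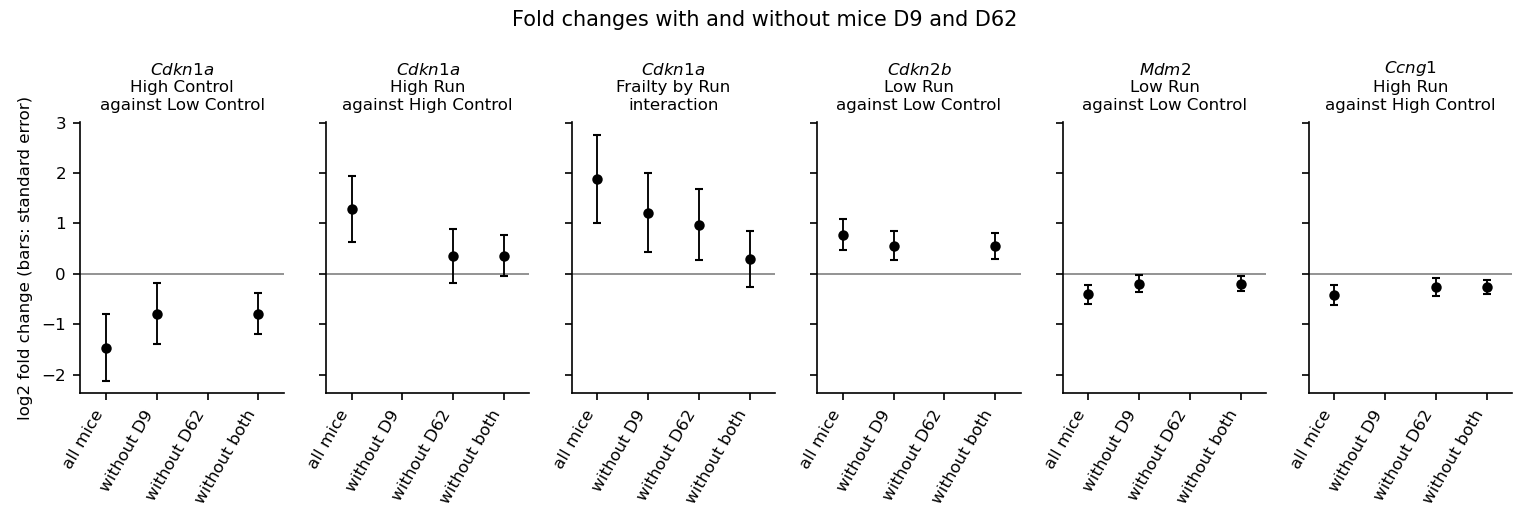
Log2 fold change (points) and standard error (bars) from edgeR for Cdkn1a, Cdkn2b, Mdm2 and Ccng1 in the comparison named over each panel, with all mice, without D9, without D62 and without both. A mouse outside a comparison's groups has no point. The Cdkn1a interaction went from 1.89 to 0.30 without both mice.

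Cdkn1b, which encodes p27, varied little (ENSMUSG00000003031, chr6:134920401-134925513, plus strand). Its levels ran from 34.3 to 49.7 CPM in Low Control, 32.2 to 39.3 in Low Run, 37.2 to 41.7 in High Control and 34.7 to 59.9 in High Run, where the highest was again D62. The log2 fold change was -0.16 (SE 0.18) in Low and 0.08 (SE 0.19) in High mice, with FDR of 0.669 and 0.979. The other 2 inhibitor genes outside the list, Cdkn1c (p57, of the Cip/Kip family) and Cdkn2d (p19, of the Ink4 family), did not pass at an unadjusted p under 0.05 in any comparison. Cdkn1c had 0.30 (SE 0.21) in Low mice and Cdkn2d 0.13 (SE 0.15).

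Cdkn2b, which encodes p15, was the 1 gene of the list whose Low groups did not overlap, against 6.93% of all genes tested (ENSMUSG00000073802, chr4:89306299-89311039, minus strand). Its level was 1.04, 0.580, 1.19 and 1.51 CPM in Low Control mice. In Low Run mice it was 1.72, 1.98, 1.92 and 1.80 CPM, so the lowest run mouse lay above the highest control. High Control mice had 1.58, 1.74 and 0.957 CPM and High Run mice 1.40, 1.46, 1.98 and 0.882, which overlapped. These are small numbers, with 14 to 59 counts in a mouse. The mean was 1.08 ± 0.386 (SD, n = 4) in Low Control and 1.86 ± 0.115 (SD, n = 4) in Low Run, a log2 fold change of 0.78 (SE 0.31, unadjusted p = 0.0237, FDR = 0.358). Without D9, the lowest control, it was 0.56 (unadjusted p = 0.0767), and without both D9 and D62 it was 0.56 (unadjusted p = 0.0476). In High mice it was -0.00275 (SE 0.33), and the difference between the responses was -0.78 (SE 0.45, unadjusted p = 0.104, FDR = 0.608). None of the 8 tested genes had groups that did not overlap in High Run against High Control (0 of 8, 7.07% of all genes), High Control against Low Control (0 of 8, 10.4%) or High Run against Low Run (0 of 8, 1.5%).

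Cdkn2a, the gene of p16 and of the p53 activator p19Arf, was barely detected (ENSMUSG00000044303, chr4:89274471-89294653, minus strand). Its counts were 1, 1, 0 and 2 in Low Control, 1, 3, 3 and 0 in Low Run, 1, 2 and 0 in High Control and 4, 3, 9 and 5 in High Run mice. Every High Run mouse thus had more counts than any High Control mouse, and as CPM they also did not overlap, which held in this direction for 2.86% of the 35419 genes with at least 1 count. A count of 0 allowed a level of up to 0.144 CPM in High Control mouse D67 (3 counts), and High Run mice had 0.165, 0.104, 0.302 and 0.157 CPM. Summed over mice there were 21 counts in High Run and 3 in High Control, a ratio of 4.51 after scaling for depth (95% exact interval 1.35 to 23.6), and 7 in Low Run and 4 in Low Control, a ratio of 1.76 (0.448 to 8.22). The intervals cover counting error only. Without the filter on low counts edgeR gave a log2 fold change of 2.06 in High mice (SE 1.05, unadjusted p = 0.0569, FDR = 0.820) and 0.73 in Low mice (SE 1.02, FDR = 0.8292), and the interaction was 1.33 (SE 1.54, FDR = 0.952). Counts were summed per gene, so the p16 and p19Arf transcripts cannot be separated.

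Cdkn2c, which encodes p18, was the least variable member, between 14.8 and 22.9 CPM over all mice (ENSMUSG00000028551, chr4:109660876-109667189, minus strand). Its log2 fold changes were -0.05 (SE 0.16) in Low mice, -0.05 (SE 0.17) in High mice and 0.16 (SE 0.17) in High Control against Low Control. The data bound any response of this gene more tightly than that of Cdkn1a, whose standard errors were over 3 times as large.

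Trp53, which encodes p53, differed by less than the spread between mice (ENSMUSG00000059552, chr11:69580359-69591873, plus strand). Its range was 17.9 to 23.04 CPM in Low Control, 18.9 to 25.1 in Low Run, 14.8 to 19.5 in High Control and 18.3 to 21.1 in High Run, and the 4 ranges overlapped. The log2 fold change was 0.09 (SE 0.14) in Low and 0.16 (SE 0.15) in High mice. D9 and D62, at 20.8 and 21.1 CPM, were near the median of the other mice, 19.4 CPM.

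Mdm2 was highest in D9 (ENSMUSG00000020184, chr10:117688875-117710758, minus strand). Low Control mice had 80.4, 138, 92.0 and 77.0 CPM, Low Run mice 72.4, 73.7, 86.1 and 60.3, High Control mice 73.1, 68.2 and 80.3 and High Run mice 76.6, 61.3, 49.4 and 80.0. Apart from D9 the groups overlapped, at 77.0 to 92.0 CPM in Low Control, 60.3 to 86.1 in Low Run, 68.2 to 80.3 in High Control and 49.4 to 80.0 in High Run. The mean was 96.9 ± 28.3 (SD, n = 4) in Low Control and 73.1 ± 10.5 (SD, n = 4) in Low Run, a log2 fold change of -0.41 (SE 0.19, unadjusted p = 0.0534, FDR = 0.373) that was -0.19 (unadjusted p = 0.264) without D9. In High mice it was -0.14 (SE 0.21, FDR = 0.967). Averaged over frailty, Run against Control gave -0.28 for Mdm2 (SE 0.14, unadjusted p = 0.0719, FDR = 0.604). Without both D9 and D62 that value was -0.22 (SE 0.11, unadjusted p = 0.0688, FDR = 0.535).

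Ccng1, a p53 target, was lowest in the 2 mice where Cdkn1a was highest (ENSMUSG00000020326, chr11:40748552-40755311, minus strand). It had 995, 688, 902 and 1161 CPM in Low Control, 875, 858, 1021 and 861 in Low Run, 1026, 1194 and 1069 in High Control and 1061, 855, 838 and 530.4 in High Run mice. The low values of 688 and 530.4 were those of D9 and D62. High Control had 1096 ± 87.1 (SD, n = 3) and High Run 821 ± 219 (SD, n = 4), and mouse D49 put the groups in overlap. The log2 fold change was -0.42 (SE 0.20, unadjusted p = 0.0586, FDR = 0.956) in High mice, -0.26 (unadjusted p = 0.153) without D62, and -0.05 (SE 0.19) in Low mice. Averaged over frailty, Run against Control gave -0.23 (SE 0.14, unadjusted p = 0.114, FDR = 0.646), and -0.22 (SE 0.09, unadjusted p = 0.0336, FDR = 0.479) without both mice.

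Plaur was scarce, and 1 run mouse stood out (ENSMUSG00000046223, chr7:24462484-24475968, plus strand). It had 3.602, 4.97, 1.33 and 1.39 CPM in Low Control mice and 1.81, 2.81, 2.17 and 7.92 in Low Run mice, the last in D68. High Control mice had 3.05, 1.55 and 1.82 CPM and High Run mice 4.03, 2.37, 4.20 and 2.90, and the groups overlapped. The log2 fold change was 0.37 (SE 0.48, FDR = 0.722) in Low and 0.65 (SE 0.53, FDR = 0.958) in High mice. Without D68 the Low value was -0.32 (unadjusted p = 0.466). Summed neutrophil markers (S100a8, S100a9, Ly6g, Retnlg and Csf3r) were 418.5 CPM in D68 and 2.73 to 67.3 CPM in the other 14 mice, with Ly6g at 0 in some mice of every group, and their part in the Plaur level was not tested. None of the 5 markers passed at an unadjusted p under 0.05 in any comparison. Macrophages also carry this receptor. The 6 macrophage markers, each detected in every mouse, summed to 153 to 194 CPM in Low Run and 87.1 to 162 in Low Control mice. At that threshold 2 of 6 were higher in Low Run (5.92% of all genes). The sum was 99.3 to 227 CPM in High Run and 77.3 to 121 in High Control mice, with 3 of 6 markers higher (3.28% of all genes). Their part in the Plaur level was not tested.

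Other genes of the pathway were read from lists of p53 regulators, p53 targets, cell cycle drivers, proliferation genes and secreted factors, which were chosen with earlier results of these data known. None of their genes passed the FDR in any comparison, and all counts that follow are at an unadjusted p under 0.05. Of the 12 regulators of p53, 3 were lower in Low Run than in Low Control, where 7.52% of all genes were: Usp7, a deubiquitinase of Mdm2 and p53, at -0.47 (SE 0.16, FDR = 0.358), the deacetylase Sirt1 at -0.77 (SE 0.27, FDR = 0.358), and the p53 kinase Hipk2 at -1.08 (SE 0.47, FDR = 0.359). The median of the 12 was -0.24, against 0.02 for all genes. D9 had the highest level of Usp7 (145 CPM, and 68.1 to 91.6 in the mice other than D9 and D62) and of Sirt1 (31.3 CPM, and 8.62 to 17.4). Without D9 and D62, Usp7 was at -0.27 (unadjusted p = 0.0229) and Sirt1 at -0.45 (unadjusted p = 0.0299). In High mice Cop1, a ubiquitin ligase of p53, was lower (-0.28, SE 0.10, FDR = 0.956) and Hipk2 was higher, at 1.16 (SE 0.52, FDR = 0.956), and its interaction was 2.24 (SE 0.70, unadjusted p = 0.0057, FDR = 0.5997). Without D9 and D62 that interaction was 2.68 (unadjusted p = 0.00102). The levels of Hipk2 were 33.8, 22.97, 55.4 and 56.6 CPM in Low Control, 13.7, 19.1, 32.4 and 14.5 in Low Run, 20.4, 17.0 and 13.1 in High Control and 71.9, 49.2, 12.3 and 17.0 in High Run mice. High Run mice fell into 2 high and 2 low values, and the run groups overlapped with their controls.

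Of the 22 p53 targets outside the list, 21 were tested, and Gdf15 was too low. The DNA repair gene Xpc was the only one to pass in Low mice (-0.55, SE 0.23, FDR = 0.358) and Eda2r, a receptor of the tumor necrosis factor family, the only one in High mice (1.10, SE 0.42, FDR = 0.956), against 7.52% of all genes lower in Low mice and 3.28% higher in High mice. Without D9 and D62 neither passed in these comparisons, with Xpc at -0.24 (unadjusted p = 0.0509) and Eda2r at 0.51 (unadjusted p = 0.140). Both were also lower in High Control than in Low Control, where 4.06% of all genes were. Eda2r was at -1.01 (SE 0.42) and Xpc at -0.57 (SE 0.25). Without the 2 mice these were -0.95 (unadjusted p = 0.0115) and -0.25 (unadjusted p = 0.0565). The interaction was 1.41 (SE 0.57) for Eda2r and 0.93 (SE 0.34) for Xpc, where 5.24% of all genes were higher. Without the 2 mice it was 0.76 (unadjusted p = 0.110) and 0.39 (unadjusted p = 0.0363). The median log2 fold change of the 21 targets was -0.22 in Low mice and 0.01 in High mice, and it was -0.01 and -0.07 without D9 and D62. In that fit 2 of the 21 were lower in High mice, against 2.64% of all genes, and 0 were higher, against 4.21%. In these 2 mice 6 of the 21 targets were at their 2 highest levels, against 13.4% of all genes: Bax and Fas, which act in cell death, the stress protein gene Sesn1, Trp53inp1, Xpc and the cyclin Ccng2. Sesn1 had 311 CPM in D9 and 481 in D62, against 31.002 to 119 in the other 13 mice. Phlda3, another target, had 454 CPM in D9, and 320 in D62 was within the range of the others (169 to 331). Of the 21 targets 0 were at their 2 lowest levels in D9 and D62, against 11.5% of all genes. Among the targets in the list of 9, Cdkn1a was high in both mice, Ccng1 was low in both and Mdm2 was high in D9 alone. The part of p53 in these levels was not tested.

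Cell cycle genes outside the list were also examined. Of 16 G1 cyclins, kinases and retinoblastoma family genes, Ccnd3, a D-type cyclin, was higher in Low Run (0.34, SE 0.14, FDR = 0.359), and E2f3 (-0.64, SE 0.25, FDR = 0.358) and Rbl2 (-0.72, SE 0.29, FDR = 0.358) were lower (5.92% of all genes were higher and 7.52% lower). E2f3 had 45.5 CPM in D9 and 13.5 to 24.99 in the mice other than D9 and D62, and without these it was at -0.27 (unadjusted p = 0.157) and Rbl2 at -0.42 (unadjusted p = 0.0218). Cdk2, the kinase that p21 inhibits, was lower in High Control than in Low Control (-0.60, SE 0.19, unadjusted p = 0.00597, FDR = 0.704), and its interaction was 0.64 (SE 0.26, FDR = 0.5997). Of 14 proliferation genes tested (Ccnb1 and Bub1 were too low), 3 were higher in Low Run, the DNA replication gene Mcm5, Top2a and Mki67, and 2 in High Run, Ccnb2 and Mki67, against 5.92% and 3.28% of all genes. Without D9 and D62 the counts were 1 and 3 of 14, against 3.68% and 4.21% of all genes in that fit. Mcm5 was then at 0.47 (unadjusted p = 0.0819) and Mki67 at 1.16 (unadjusted p = 0.0881) in Low mice. Mki67, the gene of the Ki-67 antigen of dividing cells, had 0.304, 0.166, 0.531 and 0.888 CPM in Low Control and 0.631, 3.39, 0.767 and 0.351 in Low Run mice. It had 0.463, 0.406 and 0.335 CPM in High Control and 1.56, 1.15, 1.51 and 0.535 in High Run mice, so every High Run mouse lay above every High Control mouse, as for 7.07% of all genes tested in either direction. Levels of Mki67 were low, and those in High Control rest on few counts. The value of 3.39 was that of Low Run mouse D61, which also had the highest Top2a (4.22 CPM). Both T cell markers, Cd3e (2.75, SE 0.71, FDR = 0.358) and Cd3g (2.75, SE 0.91, FDR = 0.358), were higher in Low Run at an unadjusted p under 0.05, and Cd3e in High Run. Their summed level was 6.31 CPM in D61, 0.251 to 1.36 in the other Low Run mice and 0.270 to 0.398 in Low Control, with Cd3g at 0 in 2 High Control mice, and their part in the proliferation genes was not tested. Both T cell markers also rest on few counts in mice other than D61. For Mki67 the log2 fold change was 1.45 (SE 0.64, FDR = 0.360) in Low and 1.54 (SE 0.71, FDR = 0.956) in High mice. The median of the 14 was 0.32 in Low and 0.35 in High mice.

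Of 20 senescence-associated secreted factors tested, 3 were higher in each running comparison, against 5.92% of all genes in Low and 3.28% in High mice. Timp1, an inhibitor of matrix proteases, was higher in both, by 1.45 (SE 0.45, FDR = 0.358) in Low and 1.27 (SE 0.48, FDR = 0.956) in High mice. Its levels were 0.304, 0.414, 0.973 and 1.24 CPM in Low Control and 2.86, 1.01, 2.09 and 2.11 in Low Run mice, where the lowest run mouse lay below the highest control. High Control mice had 0.965, 1.11 and 0.718 CPM and High Run mice 2.39, 2.68, 2.99 and 0.976, with D62 the 1 run mouse inside the control range. Ccl2, a chemokine gene (1.06, SE 0.46), and Igfbp7 (0.44, SE 0.20) were also higher in Low Run, and the protease gene Mmp12 (2.39, SE 0.88) and the chemokine gene Ccl8 (2.31, SE 1.03) in High Run, where the chemokine gene Cxcl1 was lower (-2.34, SE 1.06). Without D9 and D62, 2 were higher in Low Run, Timp1 and Ccl2 (3.68% of all genes in that fit). In High Run 5 were higher (4.21% of all genes) and 0 lower (2.64%). Of 7 other senescence markers, Bcl2, an inhibitor of cell death, was the 1 that passed. It was lower in Low Run (-0.46, SE 0.21, FDR = 0.362), where 7.52% of all genes were. It had 24.01 CPM in D9 and at most 18.2 elsewhere, and was at -0.26 (unadjusted p = 0.177) without D9 and D62. Of 11 genes tested around Plaur, 3 were higher in Low Run (5.92% of all genes). They were Vtn, the gene of the receptor's matrix ligand vitronectin (0.46, SE 0.17), and the integrin genes Itgam (1.02, SE 0.41) and Itgb2 (0.95, SE 0.36). In High mice 0 passed (5.18% of all genes). Without D9 and D62, 3 were higher in Low Run (3.68% of all genes) and 2 in High Run (4.21%). Averaged over frailty, Itgb2 was at 0.88 (SE 0.27, FDR = 0.456) and Itgam at 0.78 (SE 0.30, FDR = 0.506), where 5.6% of all genes were higher.

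The genes that most resembled Cdkn1a over the 15 mice in log2 CPM, among all 16920, were Dazap1 (Spearman's rho 0.946, Pearson's r 0.940), Herpud2 (0.932 and 0.913), Tnfrsf12a (0.925 and 0.862), Tmbim1 (0.921 and 0.951) and Ppp2ca (0.921 and 0.951). Tnfrsf12a encodes the receptor Fn14 of the cytokine TWEAK and Ppp2ca the catalytic subunit of a protein phosphatase. They were picked as the highest, so these values describe the choice. Without D9 and D62 the rho values were 0.885 to 0.923. The points share libraries and scaling. Tnfrsf12a had 173 CPM in D9, 38.3 in D62 and 7.98 to 37.4 in the other 13 mice.

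Cdkn1a also stood high with genes known to answer FoxO factors and glucocorticoids in muscle. Of 16 such genes, 14 were at their 2 highest levels in D9 and D62, where 13.4% of all genes tested were. This list too was chosen with earlier results of these data known, and the 2 mice were singled out in the same data. The share therefore describes these mice and is not independent evidence of a link. Trim63, the muscle ubiquitin ligase MuRF1, had 6083 CPM in D9 and 3834 in D62, against 212 to 1413 in the other 13 mice. Fkbp5, a classical glucocorticoid target, had 483 and 409.7 CPM, against 24.1 to 224. Foxo1 itself had 282 and 332 CPM, against 36.3 to 110.5. Tsc22d3 and Sgk1, also among the 16, did not have their 2 highest levels in these mice. Tsc22d3 had 486 CPM in D9 and 657 in D62, against 243 to 554 in the other 13 mice. Sgk1 had 182 CPM in D9 and 287 in D62, inside the range of the others (126 to 348). Of the 16, 7 were lower in Low Run than in Low Control, against 7.52% of all genes, with Trim63 at -2.27 (SE 0.91, FDR = 0.358) and Zbtb16 at -1.92 (SE 0.59, FDR = 0.358), and 6 had a positive interaction, where 5.24% of all genes did, with Fkbp5 at 2.82 (SE 1.09, FDR = 0.5997). The median interaction of the 16 was 1.61, against 0.03 for all genes, and -0.12 without D9 and D62, when 0 of 16 passed and 2.68% of all genes were higher and 1.74% lower. Without these mice 1 of the 16 was lower in Low Run, against 3.65% of all genes. That gene was Zbtb16 at -1.35 (unadjusted p = 0.0104), while Trim63 was at -0.72 (unadjusted p = 0.116) and the Fkbp5 interaction at 0.82 (unadjusted p = 0.291). Their part in the Cdkn1a result was not tested.

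**Figure D4:**
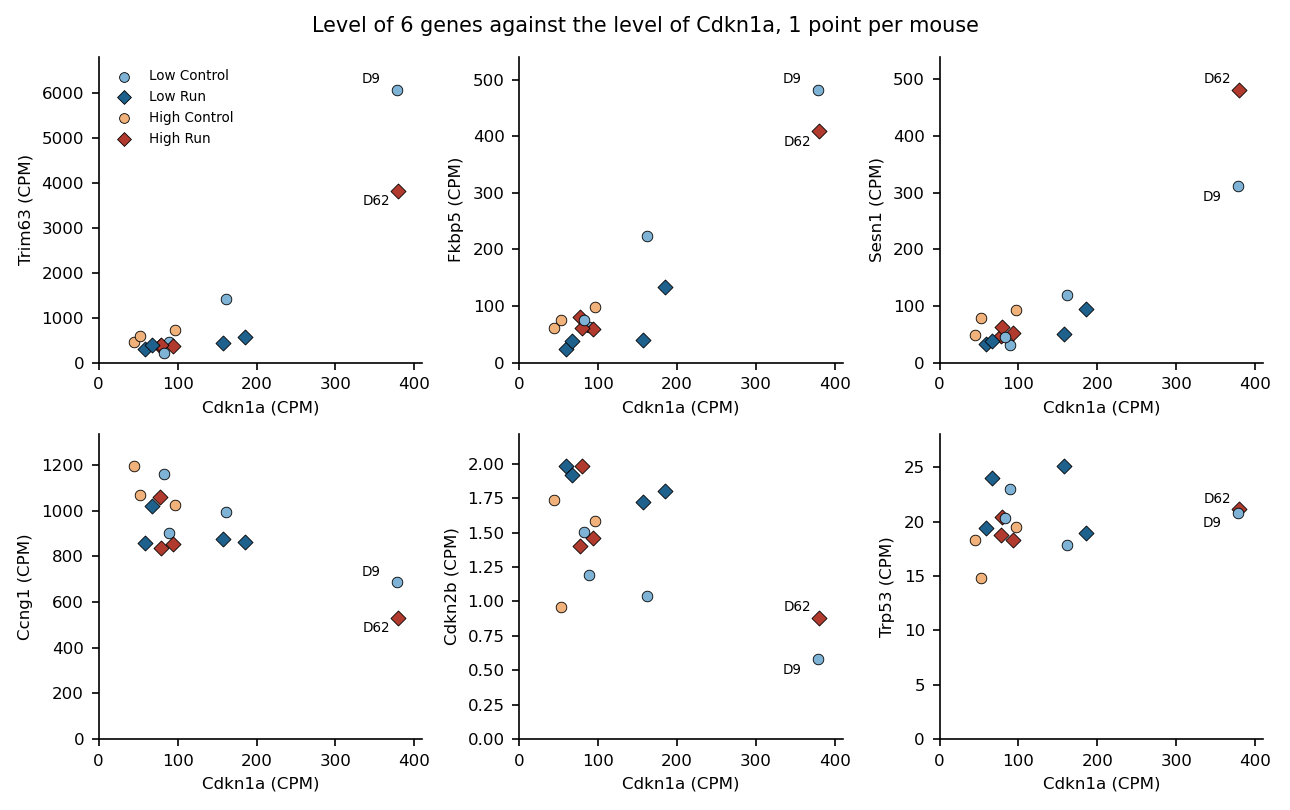
Level of Trim63, Fkbp5, Sesn1, Ccng1, Cdkn2b and Trp53 (vertical axes, CPM) against Cdkn1a (horizontal axes, CPM), with 1 point per mouse, colored by group. D9 and D62, at 378 and 379.8 CPM of Cdkn1a, are highest for Trim63, Fkbp5 and Sesn1 and lowest for Ccng1 and Cdkn2b, and their Trp53 levels of 20.8 and 21.1 CPM are inside the range of the other mice.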

How the data were processed

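RNA-seq counts from the gastrocnemius of 15 mice were analysed, 1 library per mouse. The authors deposited whole-number counts per gene, made by STAR 2.7.9a alignment to mm10 and featureCounts of Subread 2.0.3, as listed in the submitters' processing notes. Uniquely aligned proper read pairs on the strand of the gene were counted. A deposited table of variance-stabilized values was not used. Groups came from the sample labels, and replicate libraries were separate mice. Counts were fitted in edgeR 4.0.16 (R 4.3.3, limma 3.58.1) with filterByExpr, trimmed-mean scaling, 1 mean per group over all mice and quasi-likelihood F-tests. Benjamini-Hochberg adjustment was over all 16920 genes tested, with calls at an FDR of 0.1. CPM are counts per 1000000 of the scaled library, and gene positions and exon lengths came from GENCODE on GRCm38. Promoters came from RefSeq (GRCm38.p6). Alternatives used DESeq2 1.42.0, voom, other scalings and filters, and each mouse left out. The fit without D9 and D62 was added after seeing the data. In each pathway list the text draws on up to 3 genes per comparison, those with the smallest p among genes at an unadjusted p under 0.05. Not all of these genes are named, and those named are not given for every comparison. The text also names the 5 genes most correlated with Cdkn1a. Cdkn1c, Cdkn2d, Igfbp7, Cxcl1, Foxo1, Tsc22d3, Sgk1 and the targets at their highest in D9 and D62 or set beside them (Bax, Fas, Sesn1, Trp53inp1, Ccng2, Phlda3) were named after their values were seen. The members and lists were chosen with earlier results of these data known. The result of 1 gene of the lists is not reported here. The fit was tested on simulated counts. Totals were 19395125 to 30699216 counts. The intervals of the Cdkn2a ratios cover counting error only, while the standard errors of the fits include the spread between mice.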

Additional observations from a re-analysis of the deposited data

Results flagged for a closer look

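In 4 of the 27 groups of 4 mice examined over the members, the highest or lowest mouse lay far from the rest. Its gap to the nearest mouse, as a share of the group's range, was above Dixon's 95% critical value. About 1 in 20 groups of independent normal values would pass. The 27 groups reuse the same mice, D62 among them, and the share over all genes was not computed, so no excess is read from this count. Cdkn1a was 379.83 CPM in High Run mouse D62 and 77.3 to 93.6 CPM in the other 3. Cdkn1b was 32.2 CPM in Low Run mouse D66, the lowest of its group, and 38.4 to 39.3 CPM in the other 3. Ccng1 was 1021 CPM in the same mouse, the highest of its group, and 858 to 875 CPM in the other 3. Plaur was 7.92 CPM in Low Run mouse D68 and 1.81 to 2.81 CPM in the other 3.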

How the results depend on the processing

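No gene of the list passed an FDR of 0.1 under any setting tried, with edgeR, DESeq2 or voom. Over all genes, where edgeR called 0 in each comparison, the fit without a filter on low counts called 86 in Low Run against Low Control, 19 in High Run against High Control, 4 for the interaction, 6 in High Run against Low Run and 81 averaged over frailty. DESeq2 called 9, 15 and 105 in the Low, High and averaged running comparisons, and voom 45 in High mice. Of 480 fold changes refitted with 1 mouse left out, 450 kept their sign and 30 did not, and of 416 under other settings 388 kept it and 28 did not. The values that changed sign follow as log2 fold changes, and their cause was not tested. With upper-quartile scaling, Cdkn2c (0.0189) and Ccng1 (0.00684) changed sign in Low mice, Cdkn2b (0.0147) in High mice, Cdkn2c (-0.0552) for the interaction, and Cdkn1b in High Control against Low Control (0.00417) and averaged over frailty (0.00198). The Cdkn2c interaction was -0.00972 with RLE scaling, -0.0125 without a filter, -0.000985 with at least 10 counts in every mouse and -0.00964 with DESeq2, and Cdkn2b in High mice was 0.003745 with at least 10 counts. With voom, Cdkn1b (-0.0562) and Cdkn2b (0.0787) changed sign in High mice, Mdm2 (-0.0304) and Plaur (-0.0265) for the interaction, Cdkn1b (0.0433) and Plaur (0.138) in High Control against Low Control, and Plaur (0.111) in High Run against Low Run. Without both D9 and D62, so did Cdkn1a in Low mice (0.0635), Cdkn1b (-0.141) and Cdkn2b (0.165) in High mice, Cdkn1b (-0.0284), Mdm2 (-0.0548) and Plaur (-0.0741) for the interaction, Plaur (0.0222) in High Control against Low Control, and Cdkn1a (-0.490), Cdkn1b (-0.0336) and Ccng1 (0.0185) in High Run against Low Run. With 1 mouse left out, the Low response ran from -0.926 to 0.0637 for Cdkn1a, -0.193 to 0.0352 for Cdkn2c, -0.183 to 0.0688 for Ccng1 and -0.322 to 0.785 for Plaur. The High response ran from -0.141 to 0.159 for Cdkn1b, -0.216 to 0.165 for Cdkn2b and -0.123 to 0.0303 for Cdkn2c. The interaction ran from -0.0802 to 0.142 for Cdkn2c, -0.0396 to 0.154 for Trp53 and -0.140 to 0.967 for Plaur. High Control against Low Control ran from -0.136 to 0.0445 for Cdkn1b and -0.744 to 0.0212 for Plaur. High Run against Low Run ran from -0.491 to 0.740 for Cdkn1a, -0.0340 to 0.266 for Cdkn1b, -0.292 to 0.0181 for Ccng1 and -0.342 to 0.565 for Plaur. The averaged response ran from -0.127 to 0.672 for Cdkn1a and -0.155 to 0.0112 for Cdkn1b. No paired analysis was made, because the groups held different mice and the labels give no pairing between them. Groups of 3 or 4 mice and, for Cdkn2a, Cdkn2b, Plaur, Mki67 and the T cell markers, low counts limit what could be detected.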
